A study of Mus musculus with 4 samples.

Results

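MAP kinase feedback inhibitors are genes that MAP kinase signalling switches on and whose products then damp that signalling. The 10 members described here were chosen by symbol and are the dual-specificity phosphatase genes Dusp1, Dusp2, Dusp4, Dusp5, Dusp6 and Dusp16 and the Sprouty and Spred genes Spry1, Spry2, Spred1 and Spred2. All 10 were measured, among 26246 named genes, by 11 of the 27832 named probe sets. The dual-specificity phosphatases remove phosphate from the threonine and the tyrosine in the activation loop of ERK, JNK and p38, and differ in which of these kinases they prefer and in whether they work in the nucleus or the cytoplasm. Sproutys and Spreds act further upstream, at the membrane, and restrain the passage of the signal from receptor tyrosine kinases through Ras and Raf to ERK. In macrophages such phosphatases are known for limiting the cytokine output that follows Toll-like receptor signalling.

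The cells were J774M, a mouse line labelled as myeloid-derived suppressor cells (MDSCs) that bears the name of the macrophage line J774. Control cells (2 arrays) were compared with cells given NC06, an inhibitor of neutral ceramidase, at 10 uM for 24 h (2 arrays). All cells were grown in RPMI medium with serum, no genetic change was named for either group, and no label says whether the control cells received a vehicle. The values describe this 1 line. Separate cultures are not named for the 2 arrays of a group, so the spread behind each p-value may be technical only.

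Each value is a log2 signal per probe set on a whole-transcript array, and a difference of 1 on this scale is a doubling. The median over all probe sets was 4.67 to 4.75 on the 4 arrays. The labelled cell type was checked against its markers. Itgam, which encodes CD11b, read 10.53 and 10.70 log2 in control cells and 11.40 and 11.51 in NC06 cells, and Cd33 read 9.44 and 9.42, then 10.48 and 10.42. Ly6g and S100a8 were 1.38 and 1.48 log2 higher in NC06 cells, Ly6c2 had a difference of -0.44, and S100a9 (3.76 to 4.37), Arg1 (4.48 to 4.63) and Nos2 (4.61 to 4.92) lay near or below the median of the arrays. The macrophage markers Csf1r and Cd68 lay between 11.43 and 12.05.

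Marker lists of several myeloid cells differed between the groups. No marker passed the main test, limma at an adjusted p under 0.05. With limma's trend and robust variance prior, which called 2.44% of all genes higher and 3.12% lower, 4 of 8 MDSC markers, 4 of 7 macrophage markers, 3 of 11 neutrophil markers and 2 of 6 erythroid and megakaryocyte markers were higher and 0 of each lower. Among them Lyz2 was higher by 1.21 log2 and the platelet gene Ppbp by 3.60. Of 6 B cell markers 1 was lower, Ighm at -0.39 log2, and of 8 T and NK cell and 8 fibroblast and epithelial markers 0 were called. The summed linear signal of the neutrophil markers was 951 and 1071 in control cells and 2382 and 2185 in NC06 cells. It was carried by Lcn2 and Mmp8, which were 1.25 and 2.89 log2 higher. Cxcr2 was 1.01 log2 higher, and Ltf, below the median of the arrays, 0.3 log2 higher, both without overlap. The groups overlapped for Mpo, Elane, Prtn3, Camp and Csf3r, and Ngp had a difference of -0.28. Retnlg lay below the lower quartile of every array. In bulk RNA a change in the make-up of the culture and a change in RNA per cell cannot be told apart, and the part of such cells in the results that follow was not tested.

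The comparison of NC06 with control cells asks how gene expression differs in J774M cells, labelled as MDSCs, that were given the ceramidase inhibitor. Among the feedback inhibitors, 2 phosphatase genes were higher and both Sprouty genes lower in NC06 cells. Dusp5 was 1.77-fold and Dusp1 1.25-fold higher in NC06 cells, Spry1 was 1.64-fold and Spry2 1.31-fold higher in control cells, and the other 6 members differed by at most 0.15 log2. No member passed the main test, limma over all 26246 genes at a Benjamini-Hochberg adjusted p under 0.05, which called 0% of all genes. At an unadjusted p under 0.05 it held 4 of the 10 members, 2 higher and 2 lower, beside 15.3% of all genes. In 7 members the NC06 arrays were both above or both below the control arrays, without overlap, which was so for 47.7% of all genes. The median difference of the members was 0.0439 log2, against 0.002 over all genes, and was -0.009 after median centring and 0 to 0.076 without 1 array, so it has no settled direction. An exact two-sided permutation test of 2 arrays against 2 cannot give a p below 0.333, so none is given for single genes.

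A few members passed once the fit was changed in either of 2 ways. With the trend and robust prior, which follows the signal level and resists outlying genes, 2 of 10 had an adjusted p under 0.05, beside 5.56% of all genes: Dusp5 was higher and Spry1 lower. All 10 members lay in the upper part of the genes ranked by signal. Within the 13123 genes above the median signal, 3 of 10 had an adjusted p under 0.05, beside 6.64% of those genes, the third being Spry2, which was lower. At an unadjusted p under 0.05 that fit held 4 members, beside 30.1% of those genes.

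**Figure D1:**
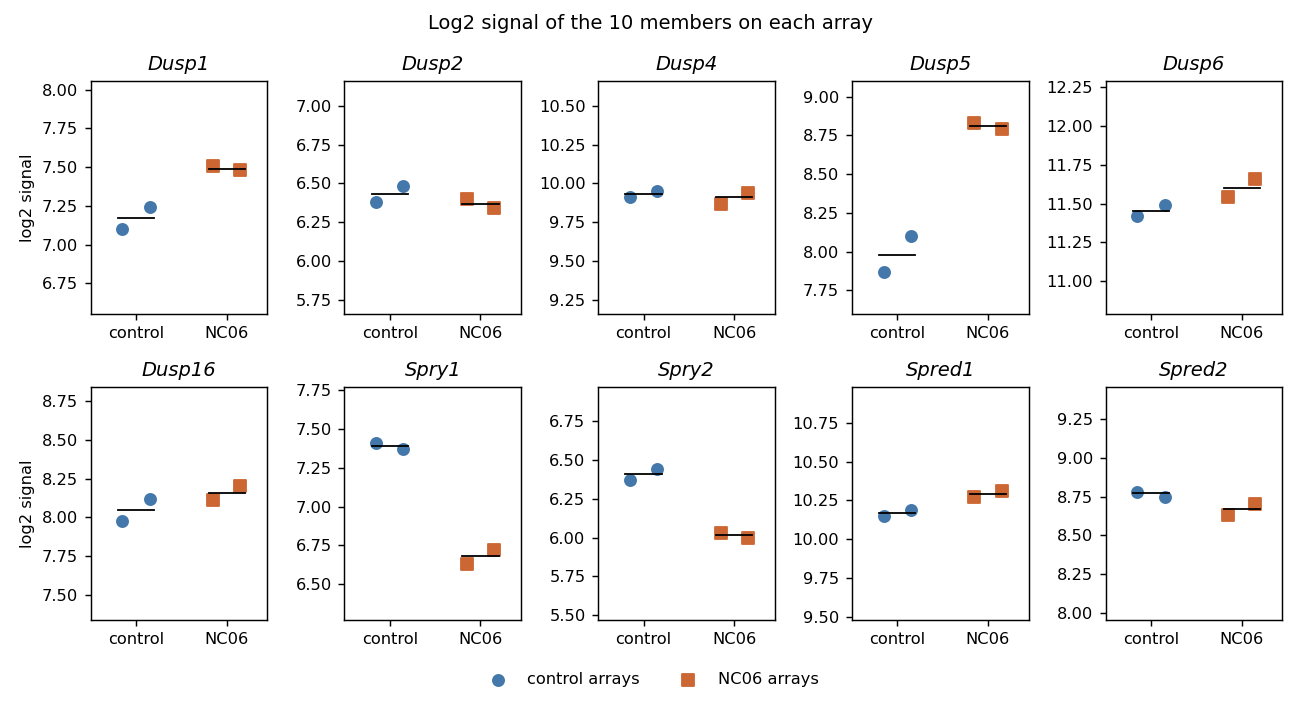
Log2 signal (vertical axes, each spanning 1.5 log2) of the 10 members on the 2 control arrays (circles) and 2 NC06 arrays (squares), with bars at the group means. Dusp5 and Dusp1 lie higher and Spry1 and Spry2 lower on both NC06 arrays, and the groups overlap for Dusp2, Dusp4 and Dusp16.

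Dusp5 encodes a nuclear phosphatase that acts on ERK alone and also holds it in the nucleus. Its signal was 7.87 and 8.10 log2 in control cells and 8.83 and 8.79 in NC06 cells. The groups were clearly apart, and the control arrays differed from each other more than the NC06 arrays did. The difference was 0.83 log2 (SE 0.108, 95% interval from 0.54 to 1.12, n = 2 per group), with a limma adjusted p of 0.146 over all genes, 0.0022 with the trend and robust prior and 0.022 among genes above the median signal. The 4 differences between single arrays ran from 0.70 to 0.96. Of all genes, 99.3% had a smaller absolute difference. The authors' deposited table gave a ratio of 1.94 for the first pair of arrays and 1.62 for the second.

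Dusp1 encodes a nuclear phosphatase with a preference for p38 and JNK and is known in macrophages as a brake on inflammatory cytokines. Its signal was 7.10 and 7.24 log2 in control cells and 7.51 and 7.48 in NC06 cells. Both NC06 arrays were higher, by 0.23 to 0.42 between single arrays. The difference was 0.32 log2 (SE 0.0901, 95% interval from 0.08 to 0.57), and its limma adjusted p was 0.259, 0.0688 with the trend and robust prior and 0.0707 among genes above the median signal, so that it did not pass in any of the 3 fits. The unadjusted limma p was 0.0195.

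The 250 bases before the annotated starts of these 2 genes are shown because both are known to be induced through elements close to the start, Dusp5 through serum response factor and Dusp1 through CREB-type factors. They are RefSeq promoter sequences of build GRCm38.p6, 5′ to 3′ on the strand of the gene, and the capitals mark matches to any of the motifs searched.
Dusp5: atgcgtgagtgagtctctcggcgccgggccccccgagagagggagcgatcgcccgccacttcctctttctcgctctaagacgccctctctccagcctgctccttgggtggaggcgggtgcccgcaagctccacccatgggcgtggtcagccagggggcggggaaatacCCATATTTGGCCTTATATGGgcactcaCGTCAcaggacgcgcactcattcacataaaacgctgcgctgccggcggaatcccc
Dusp1: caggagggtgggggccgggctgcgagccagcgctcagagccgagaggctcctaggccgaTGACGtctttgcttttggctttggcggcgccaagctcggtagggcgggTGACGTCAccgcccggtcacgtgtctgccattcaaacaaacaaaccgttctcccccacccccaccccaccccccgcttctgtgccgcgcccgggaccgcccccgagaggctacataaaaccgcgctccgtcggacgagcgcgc
The Dusp5 window is chr19:53528895-53529144 on the + strand, and that of Dusp1 is chr17:26508473-26508722 on the - strand. The motifs, searched on both strands, were the cAMP response element TGACGTCA, its core TGACG, the AP-1 site TGANTCA, the ETS core CCGGAA, the CArG box that binds serum response factor, and the p53 decamer. The core lies within the full cAMP response element, so each full match also counts as 2 matches of the core, 1 on each strand. The Dusp5 window held 2 CArG boxes side by side, which begin 82 and 72 bases before the start, and 1 core at 55 bases. Of 32851 promoter windows of the same length, 1.47% held a CArG box and 6 held 2 or more. The Dusp1 window held a full cAMP response element 143 bases before the start, a motif found in 1.55% of all windows, and another core at 191 bases.

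**Figure D2:**
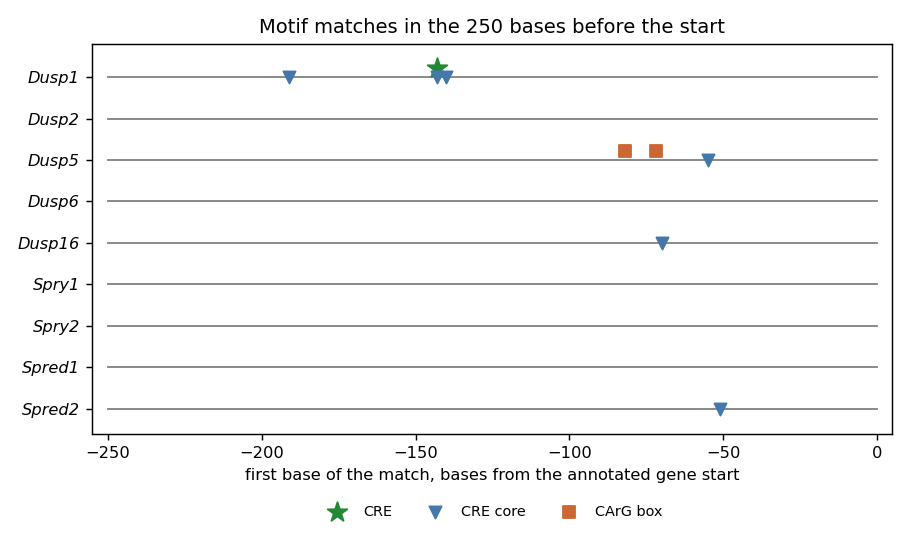
Matches to the cAMP response element (CRE, star), its core (triangles) and the CArG box (squares) in the 250 bases before the annotated start of 9 members; the horizontal axis is the distance of the first base of a match from the start, in bases. Dusp5 has 2 CArG boxes, Dusp1 has the full CRE, and Dusp2, Dusp6, Spry1, Spry2 and Spred1 have no match to any of the 3.

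Sequences were found for 9 of the 10 members, and Dusp4 is named only. Dusp16 and Spred2 each held 1 core of the cAMP response element, at 70 and 51 bases, a motif present in 17.8% of all windows. None of the 9 windows held an AP-1 site (6.75% of all windows), the exact letters CCGGAA searched as the ETS core (12%) or a p53 decamer (7.13%). Shorter or other forms of the ETS site were not searched. A match shows only that the letters are present in the window, and the absence of one says nothing about the factor.

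The other 4 phosphatase genes had intervals that include 0. Dusp6 encodes the cytoplasmic phosphatase of ERK and is a widely used readout of ERK activity. Its signal was 11.42 and 11.49 log2 in control cells and 11.54 and 11.66 in NC06 cells, both slightly higher, with a difference of 0.15 log2 (95% interval from -0.09 to 0.39, limma adjusted p 0.487). Dusp6 was the only member with a second probe set. That one read 4.14 and 3.90 in control cells and 4.06 and 4.42 in NC06 cells, below the median of the arrays, and its groups overlapped.

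Dusp4, a nuclear phosphatase of ERK and JNK, gave 9.91 and 9.95 log2 in control cells and 9.87 and 9.94 in NC06 cells. The groups overlapped, and the difference of -0.0189 log2 had a 95% interval from -0.23 to 0.19. Dusp2, an inducible nuclear phosphatase of immune cells, gave 6.38 and 6.48 in control cells and 6.40 and 6.34 in NC06 cells, with a difference of -0.0631 log2 and an interval from -0.29 to 0.16. Dusp16, which acts on JNK and p38, gave 7.98 and 8.12 in control cells and 8.11 and 8.20 in NC06 cells. The groups overlapped by 0.01 log2, and the difference of 0.11 log2 had an interval from -0.14 to 0.36. For these 4 genes the intervals leave room for differences from -0.29 to 0.39 log2, so a small difference was not detectable with 2 arrays per group.

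Spry1 encodes a Sprouty, a membrane-bound inhibitor of signalling from growth factor receptors to Ras and ERK. Its signal was 7.41 and 7.37 log2 in control cells and 6.63 and 6.72 in NC06 cells. The groups lay far apart beside the spread within each, and the differences between single arrays ran from -0.78 to -0.65. The difference was -0.72 log2 (SE 0.0823, 95% interval from -0.94 to -0.49, n = 2 per group), with a limma adjusted p of 0.117 over all genes, 0.00367 with the trend and robust prior and 0.0144 among genes above the median signal. It had the smallest p of the 10 members and stood at rank 145 of the 26246 genes, and Dusp5 at rank 195.

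Spry2, the other Sprouty among the members, which binds the ubiquitin ligase CBL and the adaptor GRB2, read 6.37 and 6.44 log2 in control cells and 6.03 and 6.00 in NC06 cells. Both NC06 arrays were lower. The difference was -0.39 log2 (SE 0.0791, 95% interval from -0.60 to -0.18), with a limma adjusted p of 0.212 over all genes, 0.0606 with the trend and robust prior and 0.0396 among genes above the median signal. The unadjusted limma p was 0.00626.

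The windows before the starts of the 2 Sprouty genes, which lay lower in NC06 cells, are also shown. The windows of Dusp2, Dusp6 and Spred1 held no match either, and a link between motifs and direction was not tested. The Sprouty windows carry no capitals because none of the motifs searched was found in them.
Spry1: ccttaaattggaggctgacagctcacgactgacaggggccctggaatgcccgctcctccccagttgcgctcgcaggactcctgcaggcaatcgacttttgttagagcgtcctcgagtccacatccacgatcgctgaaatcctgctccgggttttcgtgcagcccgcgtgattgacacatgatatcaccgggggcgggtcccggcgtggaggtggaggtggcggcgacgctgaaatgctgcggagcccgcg
Spry2: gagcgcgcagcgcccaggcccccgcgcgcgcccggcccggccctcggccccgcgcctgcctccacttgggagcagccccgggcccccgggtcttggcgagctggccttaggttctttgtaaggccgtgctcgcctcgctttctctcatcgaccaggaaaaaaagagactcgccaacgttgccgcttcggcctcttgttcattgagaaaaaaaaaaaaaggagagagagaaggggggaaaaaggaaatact
The Spry1 window is chr3:37639697-37639946 on the + strand, and that of Spry2 is chr14:105896820-105897069 on the - strand, in the same build. Both have a G and C content of 62.4% and 23 CpG dinucleotides, beside 64% and 21 for Dusp5 and 68.4% and 28 for Dusp1.

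The Spreds, which carry the Sprouty domain and bring the Ras inhibitor neurofibromin to the membrane, showed small shifts in opposite directions. Spred1 read 10.15 and 10.19 log2 in control cells and 10.27 and 10.31 in NC06 cells, a difference of 0.12 log2 (95% interval from -0.09 to 0.32, limma adjusted p 0.521). Spred2 read 8.78 and 8.75 in control cells and 8.63 and 8.70 in NC06 cells, a difference of -0.10 log2 (95% interval from -0.31 to 0.11, limma adjusted p 0.594). The groups did not overlap for either gene, and both intervals include 0.

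**Figure D3:**
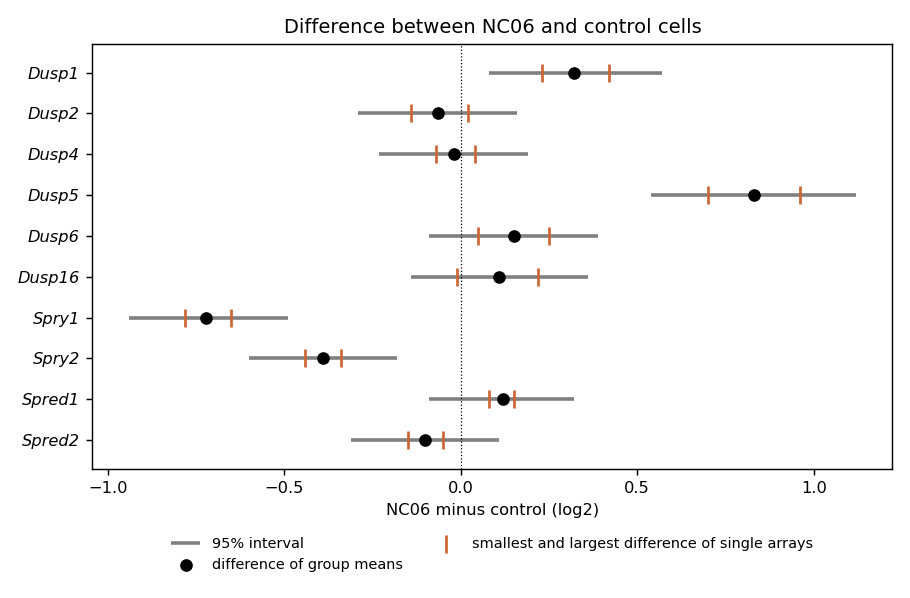
NC06 minus control difference (horizontal axis, log2) of each member: black points are differences of group means, grey lines 95% intervals of the limma fit, and orange ticks the smallest and largest of the 4 differences between single arrays. The intervals of Dusp1, Dusp5, Spry1 and Spry2 leave out 0, and Dusp5 (0.83) and Spry1 (-0.72) lie farthest from it.

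Other genes of the pathway were taken from lists chosen with earlier results of these data known. The list of 24 other feedback inhibitors is broader than the members. It also holds Ras regulators such as Rasa1, Rasa2 and Nf1, whose induction by MAP kinase signalling was not tested. Of the 24, 4 were higher and 4 lower at an unadjusted p under 0.05 in limma, beside 7.79% and 7.52% of all genes. In the adjusted test 0 passed, and the median difference was 0.035 log2. With the trend and robust prior 3 were higher and 1 lower, beside 2.44% and 3.12% of all genes. Of the 24 genes, 19 lay above the median signal. The fit to the 13123 genes there held 30.1% of them at an unadjusted p under 0.05. Rasa2, a GTPase-activating protein that switches Ras off, read 8.34 and 8.25 log2 in control cells and 9.02 and 9.04 in NC06 cells, a difference of 0.74 (limma adjusted p 0.103, and 0.000918 with the trend and robust prior). Rasa1, another such protein, was 0.29 log2 higher. Spred3 read 5.28 and 5.48 in control cells and 6.11 and 6.50 in NC06 cells, a difference of 0.92 log2 that passed with the trend and robust prior (adjusted p 0.017).

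Of the phosphatases outside the members, Dusp22 was lower by 0.45 log2 (a difference of -0.45, adjusted p 0.0201 with the trend and robust prior). Dusp10, which acts on p38 and JNK, had a difference of -0.46 log2 (adjusted p 0.218 in the main limma fit and 0.0519 with that prior). Spry4, named after its values were seen, read 6.32 and 6.41 in control cells and 6.00 and 6.13 in NC06 cells, a difference of -0.30 log2 that did not pass in limma (adjusted p 0.276). Spry3, likewise named after its values were seen, read between 2.81 and 3.26, below the lower quartile of every array, so no direction is read from it.

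Of 31 genes from the adaptors through Ras, Raf and the MAP kinase kinases to the MAP kinases, 3 were higher and 3 lower at an unadjusted p under 0.05 in limma, a share of 19.4% that lies near the 15.3% of all genes, and the median difference was -0.0534 log2. Above the median signal lay 29 of the 31, and the fit to the 13123 genes there held 30.1% of those genes at that p. Map2k6, an activating kinase of p38, read 7.82 and 8.01 log2 in control cells and 7.39 and 7.33 in NC06 cells, a difference of -0.55 (limma adjusted p 0.201, and 0.0135 with the trend and robust prior). Braf was 0.28 log2 higher and passed with that prior (adjusted p 0.0369), while Map3k5 at 0.26, Araf at 0.24 and Map3k1 at -0.33 did not. Mapk3, which encodes ERK1 and was named after its values were seen, had a difference of 0.0077 log2.

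Genes that ERK signalling is known to induce were split. Of 20 measured, 5 were higher and 4 lower at an unadjusted p under 0.05 in limma, beside 7.79% and 7.52% of all genes, 4 were higher and 1 lower with the trend and robust prior, beside 2.44% and 3.12%, and the median difference was 0.0359 log2. Above the median signal lay 18 of the 20, and the fit to the 13123 genes there held 30.1% of those genes at an unadjusted p under 0.05. Ier3, an early response gene that also prolongs ERK activity, read 8.40 and 8.40 in control cells and 9.64 and 9.57 in NC06 cells, a difference of 1.20 log2 (limma adjusted p 0.0546). Fos, a subunit of AP-1, was 0.95 log2 higher (adjusted p 0.0793), the receptor Epha2 0.69 and the urokinase receptor Plaur 0.45. Egr1, an early response factor that serum response factor also controls, read 5.38 and 5.53 in control cells and 5.06 and 5.05 in NC06 cells, a difference of -0.39 log2. It did not pass (limma adjusted p 0.231, and 0.115 with the trend and robust prior). The gene called lower with that prior was Myc, named after its values were seen, with a difference of -0.23 log2 (adjusted p 0.0472). Etv4 and Etv5, ETS factors that are induced together with Sproutys in several tissues and were named after their values were seen, had differences of -0.27 and 0.0833 log2.

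Of 17 genes whose products MAP kinases phosphorylate, 1 was higher and 2 were lower at an unadjusted p under 0.05 in limma, a share of 17.6% near the 15.3% of all genes, with a median difference of -0.0738 log2. All 17 lay above the median signal, and the fit to the 13123 genes there held 30.1% of those genes at that p. Elk3, an ETS factor that binds beside serum response factor, was 0.39 log2 higher (adjusted p 0.218, and 0.00858 with the trend and robust prior). Mapkapk2 and Mapkapk3, kinases downstream of p38, both had differences of -0.32 log2, and Mapkapk2 passed with that prior (adjusted p 0.0241). Rps6ka3 at 0.19 and Elk4 at -0.23 did not pass.

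**Figure D4:**
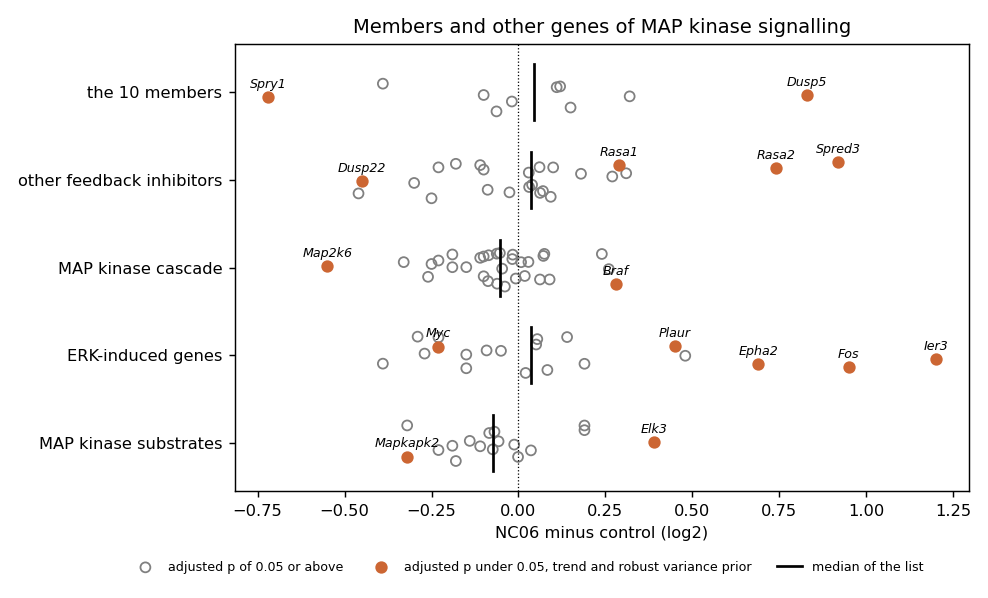
NC06 minus control difference (horizontal axis, log2) of each gene in 5 lists of MAP kinase signalling; filled points have an adjusted p under 0.05 in limma with the trend and robust variance prior and are named, open points do not, vertical spread within a list is for legibility, and black bars are list medians. The medians lie near 0 in all 5 lists, with Dusp5 and Spry1 at the 2 ends of the members.

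The genes whose pattern over the 4 arrays lay closest to that of a member were found among 11518 genes, those above the median signal other than predicted or unnamed models and small RNAs, by the root mean square difference of values centred on each gene's mean. For Dusp5 they were Neurl3, which read 10.99 and 11.23 log2 in control cells and 11.99 and 11.91 in NC06 cells, Slc39a4 and Trp53cor1, at 0.018, 0.05 and 0.05 log2. For Spry1 they were Lifr, Parp9 and H1f5, at 0.025, 0.032 and 0.035 log2. For Spry2 they were Tceanc, Abhd14a and Nars, at 0.007, 0.01 and 0.012 log2. With 4 arrays such likeness is a description only.

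The direction of the 4 members with an unadjusted p under 0.05 was the same after quantile normalization and after median centring. Without any 1 of the 4 arrays it could not reverse, because the groups of these members do not overlap. The other alternatives do not alter their differences. Dusp5 ran from 0.713 to 0.941 log2, Dusp1 from 0.252 to 0.398, Spry1 from -0.769 to -0.667 and Spry2 from -0.443 to -0.352. The fits without 1 array assume that the lone array left in a group varies like the other group, and they called 0 of all genes at an adjusted p under 0.05, so they give values and no check of the calls. Centring each array on its median took the share of higher genes among those at an unadjusted p under 0.05 from 50.9% to 31.5%. The members at that p were 4 in both cases, beside 4018 and 4183 of all 26246 genes.

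**Figure D5:**
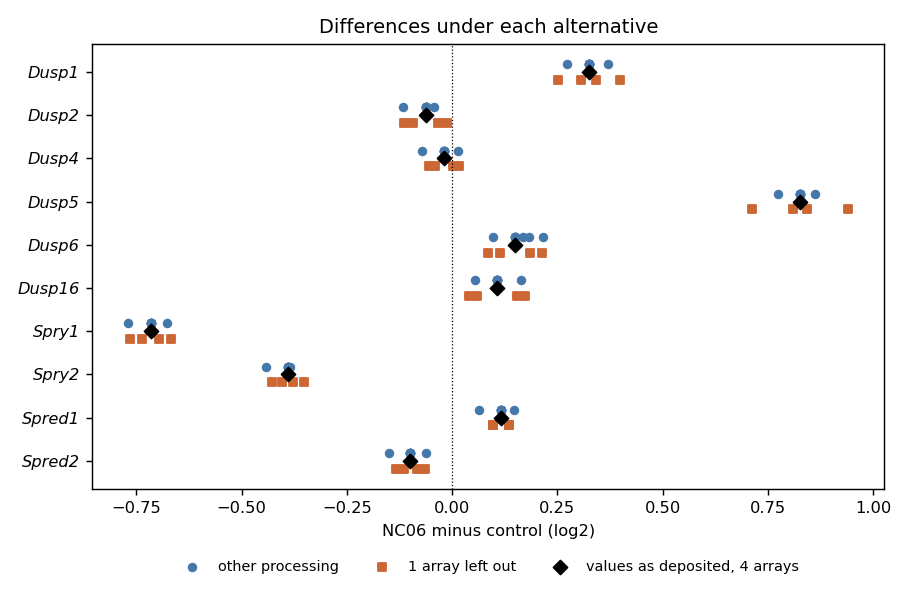
NC06 minus control difference (horizontal axis, log2) of each member with the deposited values (black diamonds), under other processing (blue circles) and with 1 array left out (orange squares). Dusp4 lies on both sides of 0, and every other member keeps to one side, those with small differences included.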

How the data were processed

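RNA from 4 samples of J774M cells was measured on whole-transcript arrays, and groups follow the sample titles. The authors deposited log2 values per probe set, for which the submitters' processing notes name Partek. Background correction, normalization, summarization, the version and the genome build are not stated in these sources. A second deposited table holds the authors' linear ratios of NC06 to control and a p-value for each probe set. Log2 of the ratios of single pairs matched the value table to within 2.6e-15, which fixes scale and direction.

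Names came from the platform annotation for 23521 of 41345 probe sets with 1 gene, and for 4311 more from the second table, if RefSeq (GRCm38.p6) lists the symbol. Probe sets with several genes or none were left out, and the probe set with the highest mean stood for a gene. Values were not normalized further. limma 3.58.1 (lmFit, eBayes, default variance prior, two-sided) in R 4.3.3 tested all 26246 genes, with Benjamini-Hochberg adjustment. In simulated data of 4 arrays this fit found 31 of 100 changes of 1 log2 at an adjusted p under 0.05. It found 64 of 100 changes of 2 log2, so many true changes of these sizes would be missed. Tables were made with Python 3.11.15 and pandas 2.3.3. Residual degrees of freedom were 2 and prior ones 2.36, so the number of arrays limits the precision.

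The members and all lists were chosen with earlier results of these data known. In each pathway list the 5 genes with the smallest p are named, and any other is marked as chosen after its values were seen. Alternatives were 2 other normalizations (quantile, median centring), 2 filters on dim genes, the trend and robust prior, 2 other rules for several probe sets, a block for the replicate number, the fits without 1 array, the authors' ratios and p-values, and an adjusted p under 0.10.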

Additional observations from a re-analysis of the deposited data

How the results depend on the processing

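No member passed an adjusted p of 0.05 in limma with the deposited values. The count was 3 among genes above the median signal (Dusp5, Spry1 and Spry2) and 2 with the trend and robust prior (Dusp5 and Spry1), and 0 under every other alternative, an adjusted p under 0.10 and the replicate block included. Both settings also called more genes in all, 871 of 13123 and 1459 of 26246, and the first tests fewer genes. Over all genes the count was 13 after quantile normalization, 28 after median centring, 135 above the lower quartile of signal and 2 with either other rule for several probe sets. Members at an unadjusted p under 0.05 numbered 6 with the trend and robust prior, beside 5073 of all 26246 genes. By the authors' deposited p-values they numbered 5, beside 3550 of 26098 genes. Members whose groups did not overlap numbered 8 to 9 without 1 array, where fewer arrays are compared, and 6 to 8 under other processing. Leaving out an array can only add genes without overlap. The share of all genes without overlap was not counted in these settings, so nothing is read from the counts. Dusp4 changed sign, to 0.015 log2 after quantile normalization, 0.002 without control replicate 2 and 0.016 without NC06 replicate 1 (-0.054 to 0.016 over the arrays left out), and the cause was not tested. With the replicate number as a block 4 members had an unadjusted p under 0.05, beside 3492 of all 26246 genes. Same-numbered arrays shared only a number, and their deviations from the group means correlated at 0.032 across genes. List medians had no settled direction for the members (-0.009 after median centring, 0 to 0.076 without 1 array), the other feedback inhibitors (-0.017 and -0.021 to 0.032) and the ERK-induced genes (-0.017 and 0.014 to 0.075), while those of the cascade (-0.106 and -0.059 to -0.03) and of the substrates (-0.126 and -0.135 to -0.02) stayed below 0. After quantile normalization the cascade and substrate medians were -0.012 and -0.029 log2. The median of all genes was itself -0.05 log2 after median centring, and -0.024 among genes above the median signal.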
